A study of Mus musculus with 4 samples.

Results

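The genes described here load peptides onto MHC class I in the endoplasmic reticulum (ER). They are 10 genes fixed by symbol: the transporter subunits Tap1 and Tap2, tapasin (Tapbp) and its homologue Tapbpl, the peptidase Erap1, the folding factors Calr, Canx and Pdia3, the light chain B2m and the transactivator Nlrc5. All 10 were found, on 11 probe sets that name a member alone, among 17604 named genes on the array. The members were chosen by name and not by their signals. All 10 had a signal above 5.43, the median of all values on the arrays, as did 11104 genes in all. The cells were mouse cDC1 (type 1 conventional dendritic cells), which present antigens of dead cells to CD8 T cells. C57BL/6 cells, wild type (WT) or XCR1-deficient (KO), received lipopolysaccharide (LPS, 100 ng/ml) alone or LPS and recombinant mouse XCL1 (100 ng/ml), the chemokine ligand of XCR1. There were 4 groups with 1 array each, all LPS-treated, and the mice are labelled female and 10 weeks old. The sources used here do not give how the receptor gene was disrupted, the tissue, the number of mice pooled or the hours of culture.

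Peptides cut by the proteasome enter the ER through a channel made of Tap1 and Tap2. Tapasin holds an empty class I heavy chain and its partner B2m at that channel, together with calreticulin (Calr) and the oxidoreductase ERp57 (Pdia3), until a peptide binds, and Erap1 trims peptides that are too long. Calnexin (Canx) folds the new heavy chain before this step, Tapbpl edits peptides away from the channel, and Nlrc5 switches on class I genes in the nucleus. Interferons raise most of these genes in many cells, whereas calreticulin, calnexin and ERp57 serve glycoproteins of every kind.

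Promoter sequence is shown for 6 members because the members' windows differ in the interferon and ER stress motifs they hold. RefSeq windows (GRCm38.p6, 250 bases before to 50 after a start site) were held for 7 of the 10 members: Tap1, Tapbp, Erap1, Calr, Canx, Pdia3 and B2m. Capitals mark matches on either strand to motifs searched by their letters. B2m, at chr2:122147527-122147686 on the plus strand, has an interferon response core (ISRE, GAAA and GAAA with 2 bases between), a match to the NF-kB consensus, a CRE-type site (TGACG) and a CCAAT box in reverse. Erap1, at chr13:74639753-74639858 on the plus strand, has the ISRE core in reverse across its start site. Tap1, at chr17:34187306-34187555 on the plus strand, has a CCAAT box, a GC box (GGGCGG) in reverse and TGACG.
B2m: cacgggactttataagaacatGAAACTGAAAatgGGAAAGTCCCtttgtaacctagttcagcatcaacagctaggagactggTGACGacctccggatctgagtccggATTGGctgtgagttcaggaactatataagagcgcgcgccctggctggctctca
Erap1: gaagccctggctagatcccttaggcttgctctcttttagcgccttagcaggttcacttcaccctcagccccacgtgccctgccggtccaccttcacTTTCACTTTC
Tap1: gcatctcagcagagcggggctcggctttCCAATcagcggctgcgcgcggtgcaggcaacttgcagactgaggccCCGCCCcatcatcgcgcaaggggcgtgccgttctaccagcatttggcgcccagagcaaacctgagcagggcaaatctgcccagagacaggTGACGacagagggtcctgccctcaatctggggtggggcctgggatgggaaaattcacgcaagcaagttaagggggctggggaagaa

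The ER stress response element was found in 2 of the folding factors. Calr (chr8:84846982-84847101, minus strand) and Canx (chr11:50325724-50325843, minus strand) each hold it (CCAAT and CCACG with 9 bases between), in reverse in Calr. In these stretches the capitals mark that element alone, and Calr also matches the NF-kB consensus just upstream of the one shown. Pdia3 (chr2:121413792-121413901, plus strand) lacks it and has CCAAT boxes, TGACG and GC boxes in reverse, the motifs also named for Tap1.
Calr: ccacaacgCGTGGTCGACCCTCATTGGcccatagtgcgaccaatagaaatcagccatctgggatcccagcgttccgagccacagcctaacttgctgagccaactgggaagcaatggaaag
Canx: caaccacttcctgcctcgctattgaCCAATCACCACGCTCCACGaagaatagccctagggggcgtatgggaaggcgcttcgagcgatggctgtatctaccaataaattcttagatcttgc
Pdia3: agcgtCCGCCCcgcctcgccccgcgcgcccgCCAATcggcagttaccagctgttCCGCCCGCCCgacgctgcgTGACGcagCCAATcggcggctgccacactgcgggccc

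Of all 32851 windows, 3.44% held the ISRE core, 0.119% the ER stress element, 37.4% CCAAT, 20.8% TGACG, 35.7% the GC box and 8.46% the NF-kB consensus. The ER stress element contains a CCAAT box, so those matches overlap. The interferon motif GAS (TTC and GAA with 3 bases between), in 8.3% of windows, matched in none of the 7. The ISRE core was present in 10 of 18 type I interferon-stimulated genes with a window and in 9 of 11 interferon-gamma-induced genes, by lists of names. The ER stress element was present in 5 of 15 other ER chaperone and stress genes. The Tap1 window shares 275 bases with that of Psmb9, an immunoproteasome subunit read from the opposite strand, whose start lies 226 bases away. A match is a string of letters and no measure of binding.

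All values below are log2 signals or log2 differences between single arrays, so replicate error cannot be estimated and no test was made. A gene is counted as higher or lower at a 1.5-fold difference (0.58). As measures of spread, the text gives the differences of all 11104 genes and the SD per probe set estimated from 442 genes with several probe sets. That SD was 0.18 for XCL1 in WT, 0.21 for XCL1 in KO, 0.22 for KO minus WT with LPS and 0.23 with LPS and XCL1. It covers disagreement between probe sets of the same gene, dim ones past the limit included, and leaves out the spread between mice or cultures. The SD over all genes was 0.18, 0.20, 0.24 and 0.27 in the same order. For the 6120 genes past a stricter signal limit (6.91) it was 0.14, 0.17, 0.23 and 0.26. Lying within 1 SD per probe set is thus a loose measure for bright genes such as the members in the XCL1 pairs.

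The targeted gene Xcr1 gave 6.42 and 7.19 on the WT arrays and 5.54 and 5.11 on the KO arrays, which follows the genotype labels. Of 13 cDC1 markers with a named probe set, 12 passed the signal limit, and Itgae stayed below it on every array (5.03 to 5.37). Of these 12, which include Xcr1, 8 were below 0 in each KO minus WT pair (7 with centring). Their medians were -0.13 and -0.17, with Itgax at -0.32 and -0.34 and Naaa at -0.27 and -0.23. In each pair 4 were above 0, up to 0.28 (Cd24a) with LPS and 0.17 with LPS and XCL1. A second, dimmer Cd24a probe set gave 0.69 and -0.21. Over all genes, 39.9% and 43.2% were above 0 in these pairs. Xist, which is transcribed from the inactive X, gave 7.95 and 7.91 on the WT arrays and 4.64 and 4.57 on the KO arrays. The Y-linked genes Kdm5d, Eif2s3y and Uty gave 7.01 to 8.89 on all 4 arrays, so these signals go against the female label. The array-name prefixes also separate the genotypes, with none shared, so genotype, sex and any batch behind these prefixes cannot be told apart. In KO minus WT, all 10 measured B cell markers were below 0 in both pairs, with mean signals of 7.97 and 8.04 in WT and 7.45 and 7.47 in KO. T cell markers were below 0 in 8 of 8 (7 of 8 with LPS under cyclic loess and 6 of 8 with centring), with means of 6.99 and 6.98 in WT and 6.53 and 6.44 in KO. All 4 measured red cell markers were above 0, with means of 5.47 and 5.49 in WT and 6.57 and 6.55 in KO. Neutrophil markers were above 0 in 8 of 9 (9 of 9 with centring), with means of 6.95 and 6.90 in WT and 7.20 and 7.34 in KO, and Ly6g and Retnlg were below the limit on every array. Macrophage markers were above 0 in 7 of 12 (8 with LPS under cyclic loess, 9 and 8 with centring; means 7.65 to 7.79) and plasmacytoid DC markers in 3 and 4 of 8 (means 8.31 to 8.49). The part of these cells in the differences of the loading genes was not tested, and in bulk RNA fewer cells of a type and less RNA per cell cannot be told apart.

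None of the 10 loading genes differed 1.5-fold in any comparison. Over all genes 0.576% to 3.5% did, by comparison, so a count of 0 of 10 is near those shares. The ranges of the members over the arrays ran from 0.05 for B2m to 0.50 for Tap2, and 85.3% of all genes had a smaller range than Tap2. The highest signal lay on the KO array with LPS and XCL1 for 7 of 10 members, Nlrc5, Tap1, Tap2, Tapbp, Tapbpl, Calr and Canx. For comparison, 26.2% of all genes were highest on that array. The lowest signal lay on the WT array with LPS for 4 members and on the KO array with LPS for the other 6.

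**Figure D1:**
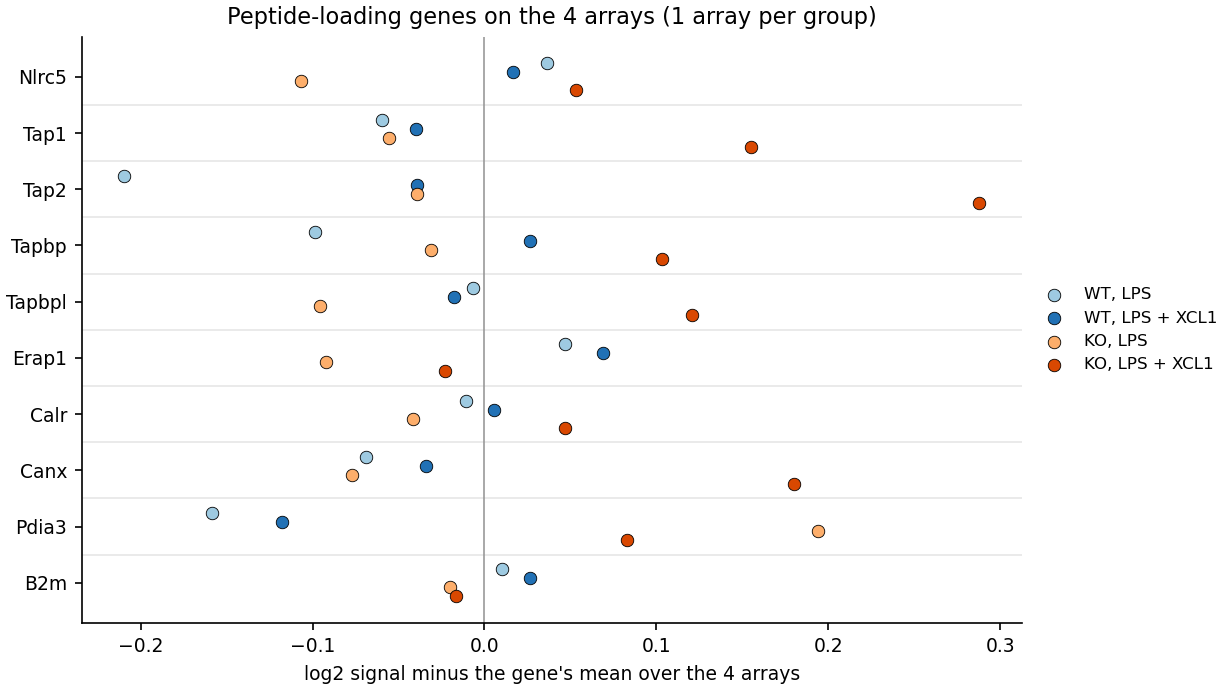
Log2 signal of each loading gene on each of the 4 arrays, minus the gene's own mean over the arrays (x axis, log2 units). Each point is 1 array. Tap2 spans 0.50 and B2m 0.05, and the KO array with LPS and XCL1 is the highest for 7 of the 10 genes.

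Nlrc5, the class I transactivator, gave 9.88 and 9.86 on the WT arrays without and with XCL1, and 9.73 and 9.89 on the KO arrays. The KO array with LPS alone was the low one, and the other 3 lay within 0.04 of each other. KO minus WT was therefore -0.14 with LPS and 0.04 with LPS and XCL1.

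Tap1 gave 11.17 and 11.19 on the WT arrays without and with XCL1, and 11.18 and 11.39 on the KO arrays in the same order. The KO array with XCL1 stood above the others, which were level. Tap2, which forms the other side of the channel, gave 8.55 and 8.72 in WT and 8.72 and 9.04 in KO. Its signals were ordered by both factors, lowest in WT with LPS, equal to 2 decimals on the WT array with XCL1 and the KO array with LPS, and highest in KO with both agents. Its differences were 0.17 for XCL1 in WT, 0.33 for XCL1 in KO, 0.17 for KO minus WT with LPS and 0.33 with both, the last 1.25-fold. Those for XCL1 in KO and for KO minus WT with both stood at percentiles 94.3 and 92.1 of all genes. Within the array, Tap2 exceeded Tap1 in each of these differences, by 0.15, 0.12, 0.17 and 0.13. All 4 were under 1 SD per probe set.

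Tapasin, which bridges the class I heavy chain to the channel, gave 10.82 and 10.95 in WT and 10.89 and 11.03 in KO on its brighter probe set. A second probe set gave 6.80 and 7.05 in WT and 7.02 and 7.24 in KO. Both placed the XCL1 array above its partner in each genotype, by 0.12 and 0.13 on the first and by 0.25 and 0.22 on the second. KO minus WT was 0.07 and 0.08 on the first and 0.22 and 0.19 on the second. The WT and KO signals overlapped across the treatments on both. Tapbpl, the peptide editor outside the loading complex, gave 8.59 and 8.58 in WT and 8.50 and 8.72 in KO. Its KO arrays lay on either side of its level WT arrays.

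Erap1, the trimming peptidase, gave 9.25 and 9.27 in WT and 9.11 and 9.18 in KO. Both KO arrays lay below both WT arrays, with differences of -0.14 without XCL1 and -0.09 with it, the second of which was 0.0073 once arrays were centred. B2m, the light chain without which class I does not fold, was the most even member, at 13.33 and 13.35 in WT and 13.30 and 13.30 in KO. The highest value on any array was 13.67, so B2m was read near the top of the scale.

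Among the folding factors, Calr gave 11.19 and 11.20 in WT and 11.15 and 11.24 in KO, a range of 0.09. Canx gave 11.20 and 11.23 in WT and 11.19 and 11.45 in KO, with the KO array with XCL1 as the high one. Pdia3, the oxidoreductase, had another order, at 10.84 and 10.88 in WT and 11.20 and 11.08 in KO. Both KO arrays were above both WT arrays, by 0.35 (1.28-fold, percentile 95.4 of all genes) in the pair given LPS alone and by 0.20 (percentile 84.1) in the other. Both Pdia3 differences kept their direction with cyclic loess and with centring. Within the array Pdia3 exceeded Calr by 0.38 in the first of these differences and by 0.16 in the second. It exceeded Canx by 0.36 in the first, and Pdia3 minus Canx was -0.01 in the second.

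Of the 5 comparisons, XCL1 in receptor-bearing cells had the narrowest range of member differences. It also had the smallest SD over all genes, 0.18 against 0.20 to 0.27 in the others. With XCL1 minus without in WT, 0 of 10 members differed 1.5-fold, beside 0.576% of all genes. Differences ran from -0.02 for Nlrc5 to 0.17 for Tap2, with a median of 0.02 against 0.03 over all genes. Tap2 and Tapbp were at 0.17 and 0.12, and the other 8 lay from -0.02 to 0.04. Of the 10, 8 were above 0, but 7 with cyclic loess and 2 (Tap2 and Tapbp) with centring, so the sign of the small differences follows the scaling. Over all genes, 58.2% were above 0 without centring. All 10 lay within 1 SD per probe set.

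In KO cells, where XCL1 has no XCR1 to bind, the same comparison gave larger values for several members. None of the 10 differed 1.5-fold, beside 1.03% of all genes. The median was 0.15 against 0.04 over all genes, with 9 of 10 above 0, also with cyclic loess, and 8 with centring, where B2m joined Pdia3 below 0. Over all genes, 59.6% were above 0 without centring. Tap2 was at 0.33, Canx at 0.26, Tapbpl at 0.22, Tap1 at 0.21 and Nlrc5 at 0.16. Tap2, Canx, Tapbpl and Tap1 lay beyond 1 SD per probe set (0.207). With centring only Tap2 did (0.258), with Canx at 0.188, Tapbpl at 0.147 and Tap1 at 0.142. Under cyclic loess Tap1 was at 0.197. Tapbp was at 0.13, Calr at 0.09, Erap1 at 0.07 and B2m at 0.0031, and Pdia3 was at -0.11.

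The XCL1 difference in WT minus that in KO was below 0 for 8 of 10 members (7 with cyclic loess or with the mean of probe sets, where Tapbp was above 0). Its median was -0.11 against -0.01 over all genes, of which 47.7% were above 0. It was -0.23 for Tapbpl, -0.22 for Canx, -0.19 for Tap1, -0.18 for Nlrc5 and -0.16 for Tap2, and 0.15 for Pdia3. No member reached 1.5-fold, beside 2.94% of all genes, and all 10 lay within 1 SD per probe set of a value over 4 arrays (0.26). This value combines all the arrays and was not tested. It shares the KO array with XCL1 with the KO comparison, the array on which 7 members were highest.

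**Figure D2:**
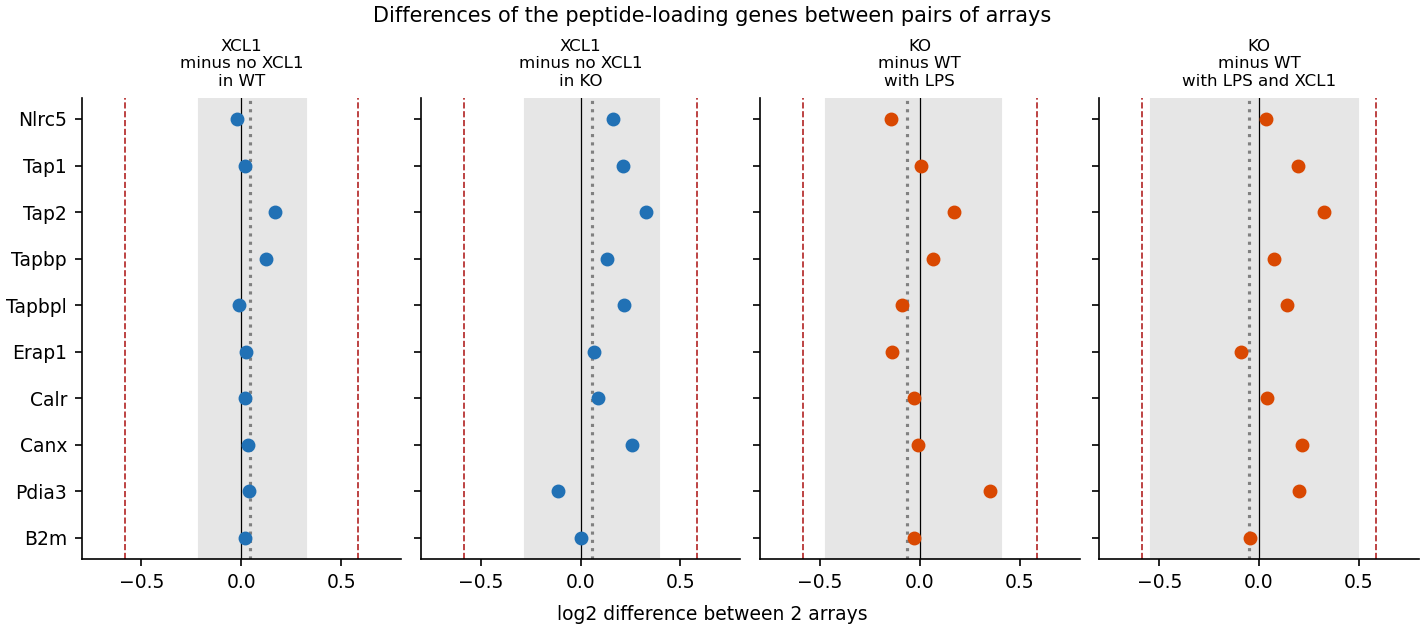
Log2 difference of each loading gene between 2 arrays (x axis), in 4 pairs. Points are genes, the grey band holds the central 95% of the 6120 genes past a stricter signal limit, the dotted line is their median, and dashed lines mark 1.5-fold. All 10 genes lie inside the band in each panel, and Pdia3 with LPS (0.35) is the nearest to its edge among the genotype differences.

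Between the genotypes, 0 of 10 members differed 1.5-fold with LPS, beside 2.07% of all genes, and 0 of 10 with LPS and XCL1, beside 3.5%. In both pairs together 0.72% of all genes differed in 1 direction and 0 members did. With LPS the median was -0.02 against -0.05 over all genes, of which 39.9% were above 0. Of the 10, 4 were above 0, namely Pdia3, Tap2, Tapbp and Tap1 (0.0044), with 3 under cyclic loess, where Tap1 was below, and 8 with centring. With LPS and XCL1 the median was 0.11 against -0.04 over all genes, of which 43.2% were above 0. Here 8 were above 0, with 7 under cyclic loess, where Calr was below, and 10 with centring. Tap2 was at 0.33, Canx at 0.21, Pdia3 and Tap1 at 0.20 and Tapbpl at 0.14. Tap2, Pdia3, Tapbp and Tap1 were above 0 in both pairs, and Erap1 and B2m below 0 in both. Subtracting each array's own median over the genes past the limit (centring) adds 0.10 to every genotype difference, which is larger than many of the members' own values. It also moved the split of all called genes from 115 higher and 115 lower to 214 and 54 with LPS.

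Other genes of the class I pathway were taken from lists of names. Between the genotypes, 2.07% of all genes reached 1.5-fold with LPS and 3.5% with LPS and XCL1. A count of 0 in a short list is near those shares, here and in the lists below. Of 18 class I heavy chain genes, 11 had a named probe set past the limit. One of them, H2-Q10, was higher in the KO by 1.18 and 1.23, but its second probe set gave -0.07 and 0.32. The classical heavy chain H2-K1 gave 11.59 and 11.51 in WT and 11.38 and 11.59 in KO. The nonclassical genes H2-T24 and H2-T23 were at 0.45 and 0.31 with LPS and at 0.42 and 0.33 with both. H2-D1 shares its probe set with H2-Q2 and was left out.

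The 5 measured immunoproteasome and activator genes, which cut the peptides that Tap carries, held none at 1.5-fold in any comparison. Their KO minus WT medians were 0.01 and 0.08, with Psmb8 at 0.11 and 0.08. Psmb9, which shares its promoter region with Tap1, gave 9.97 and 10.10 in WT and 9.97 and 10.09 in KO. The KO array with XCL1 lay above its WT partner by 0.20 for Tap1 but not for Psmb9. For Psmb9 the XCL1 array lay above the array with LPS alone in both genotypes. The constitutive subunits Psmb5, Psmb6 and Psmb7 were below 0 in both genotype pairs, with medians of -0.16 and -0.15 and none at 1.5-fold (with centring, 2 of the 3 were below 0).

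Nlrc5 works on class I promoters with the RFX, NF-Y and CREB factors. Of 10 measured genes of class I and class II transactivation none differed 1.5-fold. Ciita, the class II counterpart of Nlrc5, gave 8.52 and 8.52 in WT and 8.55 and 8.55 in KO. Irf2, an interferon regulatory factor, was at 0.39 and 0.34 in KO minus WT. The RFX genes Rfxap and Rfxank were below 0 in both pairs, at -0.05 and -0.34 and at -0.06 and -0.15. With centring all 10 genes were above 0 with LPS and 7 with LPS and XCL1.

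Other ER genes also stayed short of 1.5-fold. Of 17 measured ER chaperone and stress genes and 12 of glycan processing, none differed 1.5-fold in any comparison. Their medians in KO minus WT were 0.0042 and 0.03 for the first list and -0.07 and -0.08 for the second, whose medians were above 0 with centring. The chaperone Hspa5 (BiP), whose window holds the ER stress element, was at 0.26 and 0.44 in KO minus WT. Ganab, a glucosidase that prepares glycans for calnexin and calreticulin, was at -0.28 and -0.30. Among 6 measured peptidases none reached 1.5-fold. With LPS and XCL1, 1 did so once arrays were centred, beside 3.89% of all genes with that setting. Lap3, a leucine aminopeptidase, was at 0.31 and 0.53.

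The lists of interferon-induced genes had higher medians in the genotype pairs than the loading genes. On the probe sets used, all 24 measured type I interferon-stimulated genes were above 0 in both, also with cyclic loess and with centring, with medians of 0.27 and 0.37. A second probe set of Ifi35 gave 0.18 with LPS but -0.24 with LPS and XCL1, against 0.10 and 0.13 on the brighter one. Of the 24, 2 were higher by 1.5-fold with LPS, beside 1.04% of all genes, and 6 with LPS and XCL1, beside 1.69%. With centring these counts were 4 and 8. Over all 11104 genes, centring raised the count of higher genes from 115 to 214 with LPS and from 188 to 336 with LPS and XCL1. Interferon-gamma-induced genes were above 0 in 12 and 13 of 14 (12 and 12 with cyclic loess, 14 and 14 with centring), with medians of 0.34 and 0.48, and 2 and 4 of them were higher by 1.5-fold (3 and 4 with cyclic loess, 3 and 7 with centring). Ifng itself was at 0.95 and 1.15, Ido1, a tryptophan-degrading enzyme, at 0.85 and 1.27, and the guanylate-binding protein Gbp7 at 0.40 and 0.83. The 7 loading genes that interferons are known to raise (Tap1, Tap2, Tapbp, Tapbpl, Erap1, B2m and Nlrc5) were above 0 in 3 and 5, with medians of -0.03 and 0.08. Cyclic loess gave 2 and 5 of them and centring 5 and 7. B2m and Erap1, with the ISRE core shown above, were at -0.03 and -0.14 with LPS and at -0.04 and -0.09 with both; with centring B2m was above 0 in both pairs and Erap1 in the second. The difference between these lists was not tested.

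**Figure D3:**
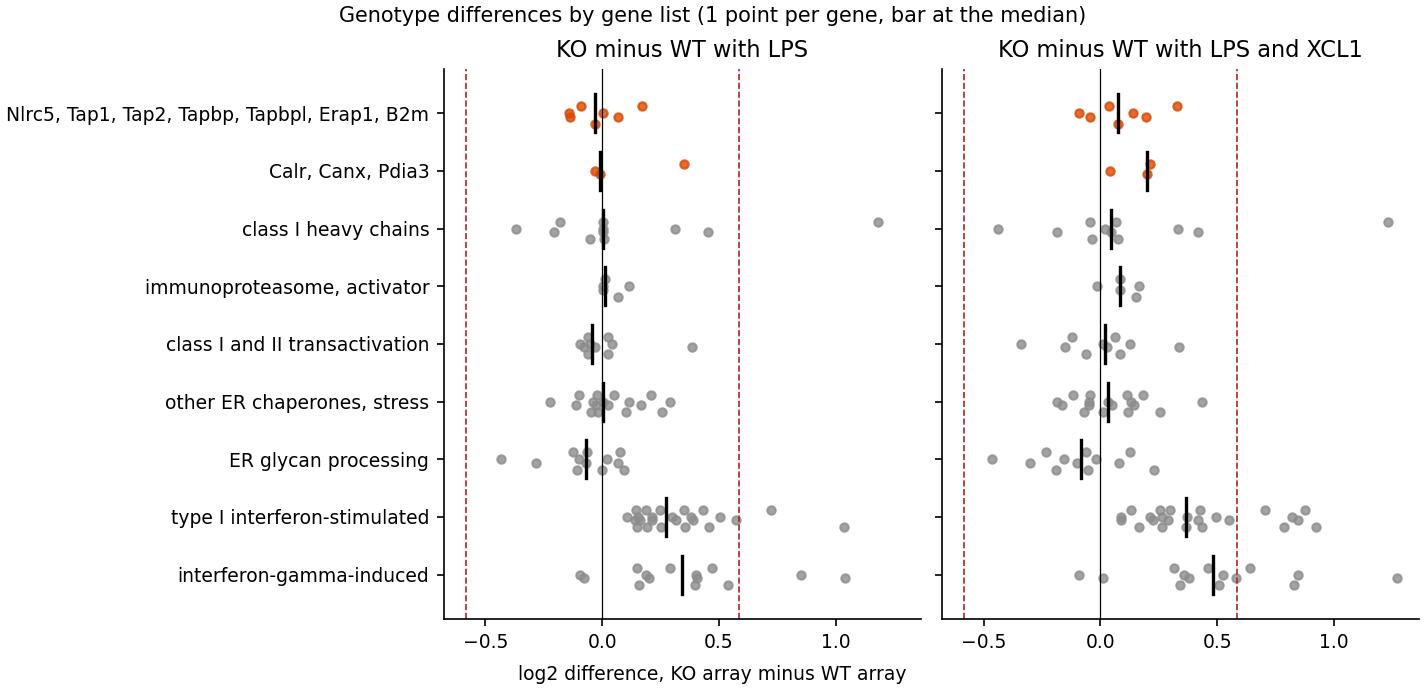
KO minus WT log2 difference (x axis) of every measured gene of 9 lists, with LPS on the left and LPS and XCL1 on the right. Points are genes, with the loading genes in orange, black bars are list medians and dashed lines mark 1.5-fold. On the probe sets used, the 24 type I interferon-stimulated genes all lie above 0, at medians of 0.27 and 0.37. The 7 interferon-inducible loading genes lie around 0, at medians of -0.03 and 0.08.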

How the data were processed

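Gene expression was measured on 1 MoGene-2_0-st array per group. The authors deposited log2 signals per probe set that the labels describe as RMA values. The sources used here do not give the software, its version or the annotation build. RMA equalises the arrays, so a shift common to most genes cannot be seen. Of 41345 probe sets, 23521 carried 1 gene symbol in the platform annotation, 1814 several and 16010 were unnamed here. RefSeq (GRCm38.p6) held 23328 of these gene IDs and changed 0 symbols. Olfactory receptors, predicted genes, small RNAs and segments of antigen receptors were left out, and the probe set with the highest mean stood for a gene. Array medians were 5.40 to 5.44, and the number of arrays limits the precision. Differences between single arrays were computed with Python 3.11.15 and pandas 2.3.3, and no test was run. The counting at 1.5-fold was tested on simulated data. Its noise was set below the SD per probe set and its planted changes were all larger than 1.5-fold. It therefore does not measure how reliable calls near that threshold are in these arrays. Cyclic loess used limma 3.58.1 (span 0.7, 3 iterations). All 10 members were named, with up to 3 genes of a list by the size of the mean genotype difference. Other genes of the lists were chosen after their values were seen. The members and lists were chosen with earlier results of these data known.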

Additional observations from a re-analysis of the deposited data

Results flagged for a closer look

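With 1 array per group, a pair of single differences of opposite sign is enough to single out a gene, and none of these differences was tested. Over all genes, 43.6% had opposite signs in the XCL1 pairs and 32.3% in the genotype pairs. Among the loading genes, 3 had XCL1 differences of opposite sign in WT and KO. The WT value minus the KO value was -0.23 for Tapbpl, 0.15 for Pdia3 and -0.18 for Nlrc5. Another group of 4 had genotype differences of opposite sign in the 2 pairs. The difference with LPS and XCL1 minus that with LPS was 0.23 for Tapbpl, 0.072 for Calr, 0.22 for Canx and 0.18 for Nlrc5. Each is below the SD of 0.26 per probe set for a value over 4 arrays.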

How the results depend on the processing

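No member reached 1.5-fold in any of the 5 comparisons under the 8 alternatives tried, which were cyclic loess, centring, the mean of probe sets, a stricter limit (6.91) or none, a threshold of 2-fold, dim signals raised to the limit and all genes with 1 symbol kept. Only cyclic loess, centring and the mean of probe sets could have changed this. The 2-fold threshold can only remove calls. The other settings left the members' values as they were, since their lowest mean signal was 8.60. No median moved by as much as 1 SD per probe set. Centring turned the sign of the member median with XCL1 in WT (0.02 to -0.04) and in KO minus WT with LPS (-0.02 to 0.08). With the mean of probe sets, which concerns Tapbp alone, the median for XCL1 in KO was 0.17. No replicate could be left out, since each group has 1 array. No paired analysis was possible because the labels give no replicate numbers. With the stricter limit 0.18% of genes differed with XCL1 in WT and 0.441% in KO. Array signals carry no detection flags here, so the limit is not a measured background.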

Other observations

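Class II genes and genes of cross-presentation had small medians in KO minus WT, but single genes differed more. The medians were 0.04 and 0.03 for the first list and -0.12 and -0.08 for the second. Over all genes, 2.07% reached 1.5-fold with LPS and 3.5% with LPS and XCL1. Of 9 measured class II chains and chaperones 1 reached 1.5-fold in the genotype pairs, H2-DMb2, a subunit of the peptide exchange factor H2-M, at 0.34 in KO minus WT with LPS and 0.60 with LPS and XCL1. Of 11 cross-presentation genes none reached 1.5-fold in the genotype pairs (1 was lower with LPS and XCL1 under cyclic loess). Ifi30, a lysosomal thiol reductase, was at -0.25 and -0.58 while Rac2, a GTPase of the phagocyte oxidase, was at -0.33 and -0.34. Snap23 was at -0.01 and -0.52. With LPS and XCL1, 4 of the 11 were above 0, up to 0.44. Of 14 measured interferon signalling genes 1 reached 1.5-fold in the genotype pairs, Ifng, and Irf7 (0.37 and 0.40) and Stat2 (0.35 and 0.40) were next in size.

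The genes whose 4 signals, each centred on the gene's own mean, lay nearest to those of Nlrc5 were Trem1, Zmiz1, Pan2, Gsg1l and Zfp322a, at Euclidean distances of 0.0138 to 0.0205. For Tap1 they were Ccser1, Asap2, Pitpnb, Nt5c2 and Snrpb2, at 0.0156 to 0.0182. Over 4 arrays such likeness is common, since 4345 genes lay within 0.2 of Nlrc5 and 2902 within 0.2 of Tap1.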
